A study of Rattus norvegicus with 14 samples.

Results

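The enzymes described here are the hydrolases and peptidases that small intestinal enterocytes carry on their brush border, measured as 9 genes among the 4156 genes with a single symbol on the arrays. They were chosen by name: 10 genes were sought in the platform annotation, 9 were found with 1 probe each, and Enpep, which encodes glutamyl aminopeptidase, was not found under that symbol. No filter on low values was applied, so all 9 entered every test. The 9 are Si, Treh, Anpep, Dpp4, Mme, Mep1a, Mep1b, Alpi and Ggt1.

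The brush border is the layer of microvilli that faces the gut lumen. Its membrane holds enzymes that finish the digestion of sugars and peptides next to the transporters that take up the products. In the rat several of them, among them sucrase-isomaltase and trehalase, are known to rise around weaning, when milk gives way to solid food.

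The RNA came from small intestine of rats aged 20 days after perfusion with HG or HF, as the labels call the solutions, and each 2-colour array set one channel's RNA against the other's as a log ratio. The labels leave HG and HF unexplained, and what is known of the study gives them as glucose and fructose at high concentration. The groups were 5 arrays with HG and HF RNA after 4 h, 4 arrays with HG and HF RNA after 20 min, and 3 arrays with the same 4 h RNA in both channels, labelled 1HG, 3HG and 3HF. A sixth array at 4 h repeated pair 2 and was left out of the tests, and 1 array carried only labelling primers. The labels give no strain, no sex and no word on which pairs share an animal. The p-values hence measure array-to-array spread, which may be technical. No array is labelled as intestine perfused without either sugar.

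The direction of the ratio is not stated. The gene of the fructose transporter GLUT5, Slc2a5, which fructose is known to induce, had a mean log2 ratio of 1.65 ± 0.25 (SD, n = 5) on the 4 h arrays, so a positive value likely means more RNA with HF. On the 20 min arrays its mean was -0.32 ± 0.20 (SD, n = 4), so this reading of the sign rests on the 4 h arrays alone. A ratio cannot tell more RNA with HF from less with HG. It carries no level either, so neither the abundance of an enzyme's RNA nor the presence of enterocyte markers could be read from these values, and dim probes could not be set apart. In bulk tissue, fewer cells of a type and less RNA per cell cannot be told apart. The SD of the log ratio over all 4952 probes lay between 0.33 and 0.40 on the 4 h arrays of pairs 1 to 5 and on the 20 min arrays. It was 0.82 on the repeat of pair 2 and 1.39 on the same-RNA array labelled 1HG.

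None of the 9 genes differed between HF and HG in limma's test, neither at 4 h nor at 20 min relative to the same-RNA arrays, and none differed between the times. At 4 h the lowest adjusted p among them was 0.492, against 3 of 4682 features (0.0641%) called over the whole table. At 20 min the lowest was 0.801, with 0.0427% of features called, and for 4 h minus 20 min it was 0.453, with 0.598% called. At an unadjusted p below 0.05 the count was also 0 of 9 in each comparison, where 9.97%, 5.21% and 13.5% of all features passed. A p that misses the threshold does not show that the ratios were alike, so each gene is given below with the interval of its difference.

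Sequence around start sites of these genes was examined for what the enzymes share beside their place in the membrane. HNF1, CDX and GATA factors are known regulators of brush border genes, and Si is a textbook target of all of them. RefSeq promoter windows of the GRCr8 assembly, 250 bases before to 50 after a start site, were available for 8 of the 9 genes. In Anpep, Mme and Ggt1 this start site lay inside the annotated span of the gene and not at its outer end. A short motif of each family was searched on both strands, picked with these sequences in view. The half-site of HNF1 is spelled GTTAAT. It lay in the windows of 3 of the 8 genes, Si, Anpep and Mep1b, and in 7.45% of 33469 promoter windows of the same length. The core bound by CDX factors, with the letters TTTATG, was present in 2 of the 8, Si and Mep1a, and in 12.7% of all windows. The core searched for the GATA family, which reads AGATAA, was present in 0 of the 8 and in 11.6% of all windows. Other spellings of a GATA site were not searched. The Si window holds TGATAG and, on the other strand, AGATAG, so the 0 does not show that GATA sites are absent. No match overlapped another. The Si window is shown whole because it holds the HNF1 and CDX motifs, and the other pair is shown around the half-site nearer to the start. Capitals mark these searched motifs, and the half-site stands as its reverse complement in Si and Mep1b.
Si, chr2:159884853-159885152, minus strand: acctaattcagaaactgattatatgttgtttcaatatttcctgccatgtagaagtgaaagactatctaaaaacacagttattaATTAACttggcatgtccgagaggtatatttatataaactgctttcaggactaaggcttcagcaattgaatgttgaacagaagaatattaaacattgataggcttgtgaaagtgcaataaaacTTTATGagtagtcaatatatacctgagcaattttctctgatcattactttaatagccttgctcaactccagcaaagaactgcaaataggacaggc
Anpep, chr1:143195177-143195216, minus strand: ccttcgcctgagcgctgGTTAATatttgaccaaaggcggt
Mep1b, chr18:12640952-12640991, plus strand: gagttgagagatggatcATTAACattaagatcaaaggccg
The half-site began 167 bases before the start site of the window in Si, 98 in Anpep and 72 in Mep1b, which held another at 246 bases. A match describes these letters only and is not shown here to be a bound site. The 3 genes with the half-site had 4 h differences of 0.24, 0.04 and -0.32 on the log2 scale in that order, and none passed the test.

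The disaccharidases were measured by Si and Treh. Si encodes sucrase-isomaltase, which splits sucrose and starch fragments into monosaccharides. Its log2 ratios were 1.19, 0.23, -0.18, 0.26 and 0.17 on the 4 h arrays of pairs 1 to 5, and 0.24, -0.08 and 0.13 on the same-RNA arrays 1HG, 3HG and 3HF. Pair 1 stood above the other pairs, which overlapped the same-RNA arrays. The difference was 0.24 (95% interval -0.34 to 0.81; limma adjusted p = 0.785), and 0.02 without pair 1. On the 20 min arrays the ratios of Si were -0.40, 0.13, -0.12 and 0.39, on both sides of 0 and around the same-RNA values. The 20 min difference from the same-RNA arrays was -0.10 (interval -0.70 to 0.50), and 4 h minus 20 min gave 0.34 (interval -0.19 to 0.87), or 0.12 without pair 1 at 4 h.

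Treh encodes trehalase, which splits trehalose into glucose. Its ratios at 4 h were 0.64, -0.35, -0.06, -0.83 and -0.06, against -0.08, -0.04 and -0.29 on the same-RNA arrays. The 4 h arrays reached further in both directions than the same-RNA arrays, and pairs 1 and 4 lay at opposite ends. The difference at 4 h was 0.01 (interval -0.54 to 0.55). At 20 min the ratios were -0.35, -0.44, -0.75 and -0.53, and all 4 lay below all 3 same-RNA arrays. Treh was the 1 gene of 9 whose groups did not overlap in that comparison, which held for 7.01% of all features. The 20 min difference was -0.38 (interval -0.95 to 0.19; limma adjusted p = 0.861). The primer array gave -0.03. Between the times the difference was 0.39 (interval -0.11 to 0.89; adjusted p = 0.518), and without pair 1 at 4 h it was 0.19.

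**Figure D1:**
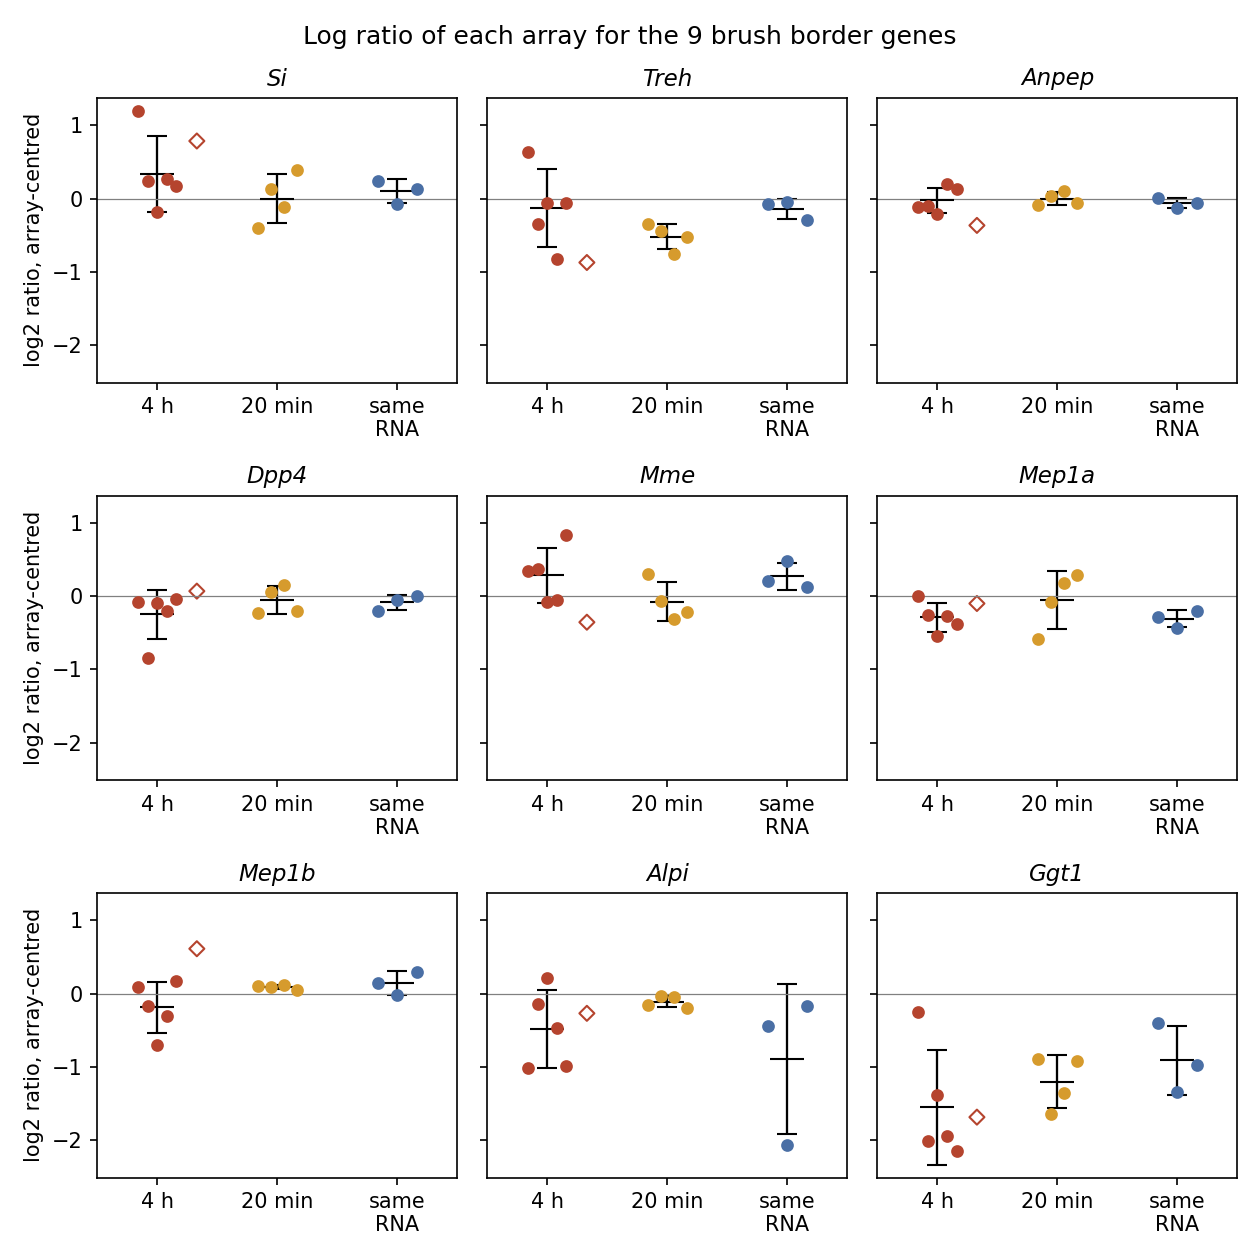
Log2 ratio of each array, centred on the array's median, for the 9 genes. Filled points are the arrays at 4 h (n = 5), at 20 min (n = 4) and with the same RNA in both channels (n = 3), bars are mean ± SD, and the open diamond is the repeat array of pair 2, left out of mean and SD; Ggt1 lies below 0 on every array shown, the same-RNA arrays included.

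Anpep and Dpp4 encode exopeptidases that trim peptides from their amino end. Anpep, aminopeptidase N, takes single residues. Its ratios were -0.12, -0.10, -0.21, 0.19 and 0.12 at 4 h, -0.08, 0.04, 0.10 and -0.06 at 20 min, and 0.00, -0.13 and -0.06 on the same-RNA arrays. All 3 groups overlapped around 0. Anpep had the narrowest intervals of the 9 genes: its difference from the same-RNA arrays was 0.04 at 4 h (interval -0.19 to 0.28) and 0.06 at 20 min (interval -0.18 to 0.31).

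Dpp4, dipeptidyl peptidase 4, removes dipeptides and is known for inactivating the incretin hormones. Its ratios at 4 h were -0.07, -0.84, -0.09, -0.20 and -0.04, against -0.20, -0.06 and 0.00 on the same-RNA arrays. Pair 2 lay apart from the other pairs, which fell within the range of the same-RNA arrays. The repeat array of pair 2 gave 0.07 for Dpp4, so the low value was not seen again with the sign as deposited. The 4 h difference was -0.16 (interval -0.55 to 0.22; adjusted p = 0.774) and -0.01 without pair 2. At 20 min the ratios were -0.24, 0.06, 0.16 and -0.20, with a difference of 0.03 (interval -0.38 to 0.43).

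The endopeptidases, which cut within peptide chains, were measured by Mme, Mep1a and Mep1b. Mme encodes neprilysin, a zinc metallopeptidase that degrades peptide hormones. Its ratios at 4 h were 0.35, 0.37, -0.08, -0.06 and 0.83, against 0.20, 0.48 and 0.12 on the same-RNA arrays, so both groups leaned to the positive side. At 20 min they were 0.30, -0.07, -0.31 and -0.22. The 4 h difference was 0.01 (interval -0.44 to 0.47) and the 20 min difference -0.34 (interval -0.82 to 0.13; adjusted p = 0.825). Mme had the smallest p of the 9 genes between the times, with a difference of 0.36 (interval -0.06 to 0.77; adjusted p = 0.453) that was 0.22 without pair 5 at 4 h, and the arrays of the 2 times overlapped.

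Mep1a and Mep1b encode the alpha and beta subunits of meprin, a zinc metallopeptidase of the astacin family that assembles from both. Mep1a had ratios of 0.00, -0.26, -0.55, -0.27 and -0.38 at 4 h, against -0.29, -0.43 and -0.20 on the same-RNA arrays. All 3 same-RNA arrays and 4 of the 5 arrays at 4 h were thus below 0, and the difference was 0.02 (interval -0.39 to 0.42). Its 20 min ratios, -0.59, -0.08, 0.18 and 0.28, lay on both sides of 0, with a difference of 0.25 (interval -0.17 to 0.67), which was 0.14 without pair 4 at 20 min and 0.43 without pair 1 at 20 min.

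Mep1b had ratios of 0.09, -0.17, -0.70, -0.31 and 0.17 at 4 h, against 0.15, -0.03 and 0.30 on the same-RNA arrays. Pairs 2, 3 and 4 lay below the same-RNA arrays and pairs 1 and 5 among them. The 4 h difference was -0.32 ± 0.17 (SE; interval -0.70 to 0.05; adjusted p = 0.492), the smallest p of the 9 genes at 4 h, ranked 770 of 4682 features. Without pair 3, whose -0.70 was the lowest, the 4 h difference was -0.20. At 20 min the ratios were 0.11, 0.08, 0.12 and 0.05, the tightest of the 9 genes, with a difference of -0.05 (interval -0.44 to 0.34). Between the times Mep1b differed by -0.28 (interval -0.62 to 0.07) and Mep1a by -0.24 (interval -0.61 to 0.13), so neither subunit passed (adjusted p = 0.494 and 0.596). The difference of Mep1b between the times was -0.15 without pair 3 at 4 h, and that of Mep1a ran from -0.42 without pair 1 at 20 min to -0.12 without pair 4 at 20 min.

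The genes most like Mep1b over the 9 arrays at 4 h and 20 min were taken from 4155 others by Pearson r, as a description with no test. They were the olfactory receptor gene Or1e18 (r = 0.96), Fas (0.93), Gucy2c (0.93), Ptgir (0.93) and Or2at1 (0.92). Fas encodes a death receptor, Gucy2c the guanylate cyclase of the enterocyte surface that binds guanylin, and Ptgir the prostacyclin receptor. Without the 2 arrays on which Mep1b lay furthest from its median, r was 0.91 for Gucy2c and between 0.44 and 0.69 for the other genes. These points share the arrays and their normalization.

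Alpi encodes intestinal alkaline phosphatase, an enzyme of the differentiated enterocyte that removes phosphate from lipids, nucleotides and bacterial lipopolysaccharide. Its ratios at 4 h were -1.01, -0.14, 0.22, -0.47 and -0.98, against -0.44, -2.06 and -0.17 on the same-RNA arrays. The lowest of all its values, -2.06, was thus on the array that carried 3HG RNA in both channels. The difference at 4 h was 0.42 (interval -0.43 to 1.26; adjusted p = 0.724), and without the 3HG array it was -0.17. At 20 min all 4 ratios lay between -0.20 and -0.04, with a difference of 0.79 (interval -0.10 to 1.67; adjusted p = 0.801) that was 0.20 without the 3HG array. Against 20 min the 4 h arrays differed by -0.37 (interval -1.15 to 0.41), and by -0.24 without pair 1 at 4 h.

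Ggt1 encodes a gamma-glutamyl transferase, which acts on extracellular glutathione. Its ratios at 4 h were -0.24, -2.01, -1.39, -1.95 and -2.15, at 20 min -0.89, -1.64, -1.36 and -0.92, and on the same-RNA arrays -0.40, -1.34 and -0.98. The repeat array of pair 2 gave -1.68 and the primer array -0.10. Every array with tissue RNA was therefore negative, whether its channels held HF and HG or the same RNA. Set against 0, the ratio of Ggt1 passed limma's test at both times, at -1.55 ± 0.24 (SE) for 4 h (adjusted p = 0.00102) and -1.20 ± 0.27 for 20 min (adjusted p = 0.0162). It was the 1 gene of 9 to do so, where 16.3% of all features at 4 h and 8.2% at 20 min passed against 0. Relative to the same-RNA arrays the difference was -0.64 (interval -1.49 to 0.22; adjusted p = 0.545) at 4 h and -0.29 (interval -1.19 to 0.60; adjusted p = 0.960) at 20 min. Without pair 1, whose -0.24 was the highest, the 4 h difference was -0.96, and it was -0.39 without the same-RNA array 1HG, with 0 of 9 genes called in either case. The 20 min difference was -0.04 without the array 1HG and -0.51 without the array 3HG.

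**Figure D2:**
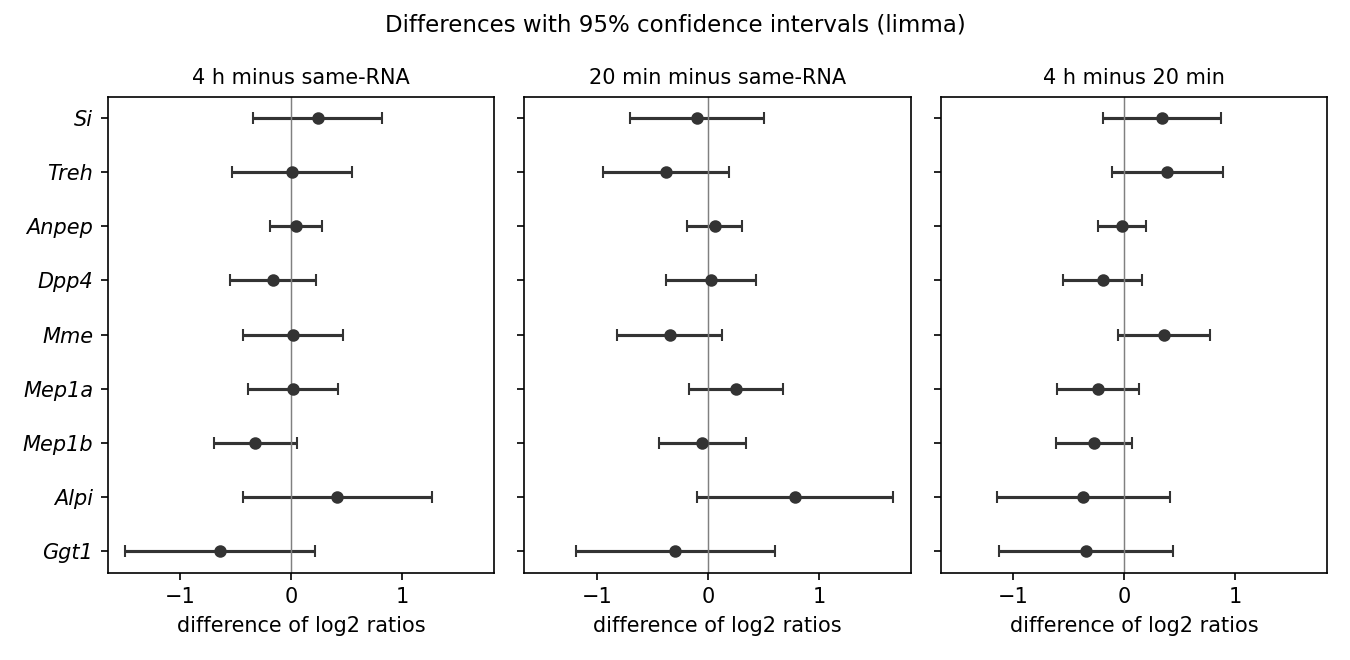
Difference of mean log2 ratios (x axis) for each of the 9 genes, with 95% confidence intervals from limma, for 4 h minus the same-RNA arrays, 20 min minus the same-RNA arrays and 4 h minus 20 min. All 27 intervals contain 0; those of Alpi and Ggt1 are the widest and that of Anpep the narrowest.

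By sign, the 9 genes were split in each comparison. At 4 h 6 differences from the same-RNA arrays were above 0 and 3 below, with a median of 0.01, against 48.5% above 0 and a median of -0.01 over all features. With 1 array left out, between 3 and 6 of the 9 were above 0 at 4 h, and the median lay between -0.06 and 0.08. At 20 min 4 were above and 5 below, with a median of -0.05, against 50.6% above 0 and a median of 0.00 over all. For 4 h minus 20 min 3 were above and 6 below, with a median of -0.19, against 48% above 0 and a median of -0.01 over all. With 1 array left out this median of the 9 genes ran from -0.24 to -0.04, the latter without pair 2 at 4 h. The last set of 6 held both meprin subunits, both exopeptidases, Alpi and Ggt1. Groups did not overlap for 0 of the 9 at 4 h (6.71% of all features), for Treh alone at 20 min, and for 0 between the times (6.54%).

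The width of these intervals followed the spread between arrays of a group. At 4 h the SD of the log ratio was 0.78 for Ggt1, 0.53 for Treh, 0.53 for Alpi and 0.51 for Si, against a median of 0.20 over all features. The SD of Ggt1 was above that of 99.3% of features and that of Si above 96.9%, while Anpep, at 0.17, and Mep1a, at 0.20, lay below the median. On the same-RNA arrays the SD was 1.02 for Alpi and 0.47 for Ggt1, against a median of 0.15. Si and Treh, at 0.16 and 0.14 there, were near that median and had a larger SD at 4 h. For Si pair 1 was at 1.19 at 4 h, where the other pairs lay between -0.18 and 0.26. Pair 1 gave the highest 4 h value of Si, Treh, Mep1a and Ggt1 and the lowest of Alpi.

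**Figure D3:**
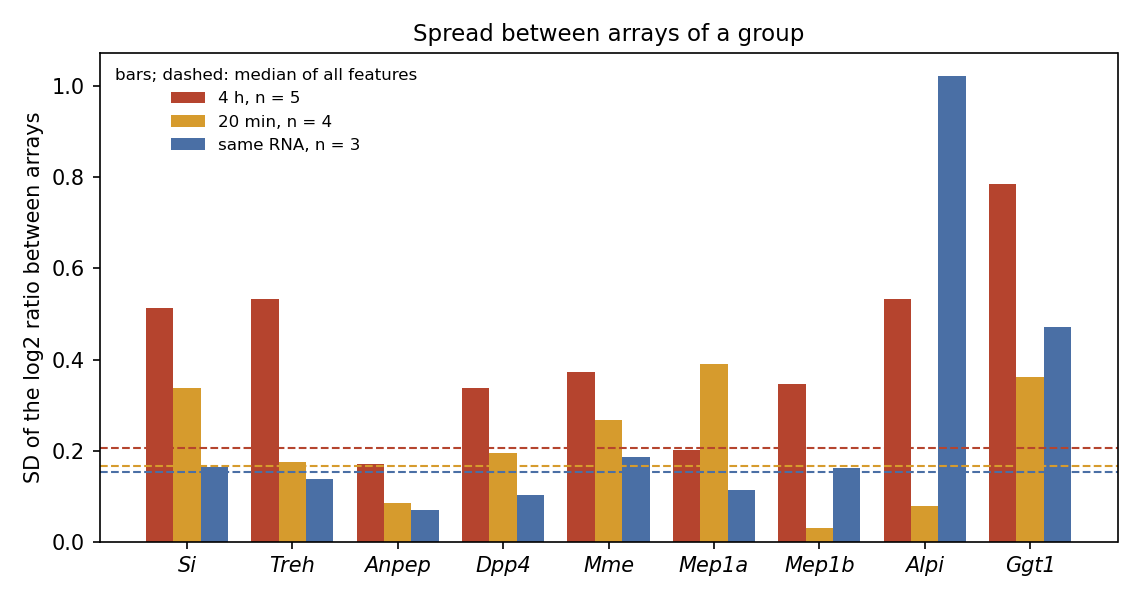
SD of the log2 ratio between arrays (y axis) for each of the 9 genes at 4 h (n = 5), at 20 min (n = 4) and on the same-RNA arrays (n = 3). Dashed lines mark the median SD over all 4682 features in each group, at 0.20, 0.17 and 0.15; Ggt1 had the largest SD at 4 h and Alpi the largest on the same-RNA arrays.

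The repeat of pair 2 allowed the same RNAs to be read on a second array. Slc2a5 had a ratio of -1.66 on it, of opposite sign to the 5 other arrays at 4 h, and its title adds a 5 after HG and a 3 after HF, which the other titles lack and no label explains. Whether its dyes were swapped is thus not settled. The repeat gave 0.78 for Si, -0.87 for Treh, -0.37 for Anpep, -0.36 for Mme and 0.61 for Mep1b. It had the sign of array 2 in Si, Treh, Anpep, Mep1a, Alpi and Ggt1 and the opposite sign in Dpp4, Mme and Mep1b. With its sign turned about 0, the 6 genes of the same sign become 3. An offset that a gene also shows on same-RNA arrays would keep its sign in a swap. These counts hence cannot tell whether the dyes were swapped. Over all 4682 features the repeat's values as deposited correlated with those of array 2 at r = 0.41, as a description across features that share the arrays' normalization. With this array averaged into pair 2, as deposited or mirrored about the same-RNA mean, 0 of the 9 genes were called in each comparison.

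Other hydrolases that enterocytes or their surroundings expose to the lumen were few on the arrays, 6 of 17 sought. Lct and Mgam, which encode lactase and maltase-glucoamylase, were among those not found under these symbols. None of the 6 was called in any comparison, with 2 above 0 and 4 below at 4 h. Folh1, which encodes a folate-releasing carboxypeptidase, had ratios between 0.24 and 0.57 at 4 h, and -2.94, 0.26 and -0.09 on the same-RNA arrays. Its difference of 1.31 ± 0.54 (SE; adjusted p = 0.457) rested on the -2.94 of the array 1HG, without which it was 0.30. Dpep1, a membrane dipeptidase, differed by 0.49, the phospholipase gene Plb1 by -0.16 and the peptidase gene Naaladl1 by -0.35 (adjusted p between 0.658 and 0.878). With 1 array at 4 h left out the differences were as near to 0 as 0.23 for Dpep1 (pair 1) and -0.08 for Plb1 (pair 3), and that of Naaladl1 turned to 0.06 (pair 3).

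Of 34 peptidases related to the 9 enzymes but located elsewhere, 20 were measured and 0 called, with 10 differences above 0 and 10 below at 4 h. The smallest p belonged to Ggh, gamma-glutamyl hydrolase of lysosomes, at -0.58 ± 0.18 (SE; limma adjusted p = 0.345). Its 4 h ratios ran from -0.97 to -0.08 and its same-RNA ratios from 0.01 to 0.24. Rnpep, aminopeptidase B, had 4 h ratios from -0.08 to 0.30 and same-RNA ratios from -0.32 to -0.10, with a difference of 0.39 ± 0.12 (adjusted p = 0.345). For both genes the 4 h range was separate from the same-RNA range. For Rnpep the margin was narrow, with a lowest 4 h ratio of -0.082 and a highest same-RNA ratio of -0.096. Separate ranges at 4 h were found for 3 of the 20 peptidases, against 6.71% of all features. Trhde, which degrades thyrotropin-releasing hormone, differed by -0.32 and the lysosomal peptidase gene Tpp1 by -1.03, which was -0.09 without the same-RNA array 3HG, at 2.83 (adjusted p = 0.466 and 0.492).

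Genes that build the brush border and its scaffold were measured for 12 of 22, with 0 called, 2 above 0 and 10 below at 4 h, and a median of -0.18. Anxa2, an annexin, had the smallest p (-0.39 ± 0.15, SE; adjusted p = 0.425). Krt20 and Pdzk1, a keratin and a scaffold protein, differed by -0.33 and -0.36, but Pdzk1 was at 1.77 on the array 1HG, without which its difference turned to 0.26, and Krt20 was at 0.77 on the array 3HG, without which its difference was -0.11. The keratin gene Krt18 differed by -5.21, because the array 1HG gave 15.7 where every other array with tissue RNA lay between -0.16 and 0.03. Between the times 6 of the 12 were above 0 and 6 below.

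Of 19 transcription factors of intestinal epithelium 13 were measured and 0 called. Cdx2, the homeobox factor whose core motif the Si window holds, had ratios of -0.28, -0.16, -0.41, -0.26 and -0.25 at 4 h, and 0.12, 0.11, 0.22 and -0.11 at 20 min. The 5 arrays at 4 h lay below the 4 at 20 min, with a difference of -0.36 ± 0.11 (SE; adjusted p = 0.195). Between the times groups did not overlap for 2 of the 13 factors and for 6.54% of all features. On the same-RNA arrays Cdx2 had 0.14, -0.24 and 0.27, which overlapped the 4 h arrays, and the 4 h difference was -0.33 ± 0.12 (adjusted p = 0.409). Foxa3, Klf4 and Hnf4a differed by 0.30, -0.15 and 0.16 at 4 h (adjusted p between 0.574 and 0.746). With 1 array left out these values were as near to 0 as 0.18 for Foxa3 (pair 1), -0.08 for Klf4 (1HG) and 0.04 for Hnf4a (3HG).

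Genes of pancreatic enzymes were measured for 13 of 19, with 0 called and 10 below 0 at 4 h and at 20 min. With 1 array left out, between 9 and 11 were below 0 at 4 h and between 7 and 10 at 20 min. The 20 min median was -0.14, and -0.0044 without the same-RNA array 3HG. The smallest p at 4 h belonged to Clps (-0.78), Pnliprp1 (-0.50), Cel (-0.37) and Pnliprp2 (2.21). These sizes rested in part on single same-RNA arrays. Pnliprp2 was at -6.42 on the array 1HG, and without it the difference was 0.13. Clps was at 1.80 on the array 3HG, and without that array the differences were -0.28 for Clps, -0.18 for Pnliprp1 and -0.20 for Cel. Of cell type markers, 0 were called in any comparison. Enterocyte markers were measured for 8 of 10, with 6 below 0 at 4 h and a median of -0.20, and with 5 below 0 and a median of -0.34 for 4 h minus 20 min. At an unadjusted p below 0.05 in limma's test, 3 of the 8 passed at 4 h, 0 at 20 min and 4 between the times. Over all features 9.97%, 5.21% and 13.5% passed. With 1 array left out the enterocyte median ran from -0.27 to -0.16 at 4 h and from -0.35 to -0.31 between the times. The measured markers numbered 2 for goblet, 5 for Paneth, 7 for enteroendocrine, 3 for dividing, 6 for smooth muscle and 3 for leukocyte cells, with 4 h medians of 0.46, 0.11, -0.17, 0.02, -0.10 and -0.05 in that order. The goblet markers were Muc2, a mucin, at 0.73 and Tff3, a trefoil peptide, at 0.19. Muc2 was at -2.34 on the array 1HG, and without that array its difference was -0.08 and the goblet median 0.06. With 1 array left out the medians of Paneth, dividing and leukocyte markers also turned, to -0.05 without pair 5, -0.10 without 3HG and 0.0025 without 1HG, while those of enteroendocrine and smooth muscle markers were -0.09 without 1HG and -0.03 without pair 3. Their part in the values of the brush border enzymes was not tested.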

How the data were processed

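The authors deposited 1 table of log ratios for 4952 probes on 14 arrays of 2 colours, treated here as log2 values. The sources used here do not state the scanner, background correction, normalization, logarithm base or ratio direction. A different base would multiply all differences by 1 factor and leave p-values as they are. Column medians lay between -0.07 and 0.02. Each array was centred on its median, and probes of 1 symbol in the platform annotation were averaged, which left 4682 features. The tests were run with lmFit and eBayes of limma 3.58.1 (R 4.3.3), as 1 fit of 12 arrays in 3 groups with 9 residual and 2.84 prior degrees of freedom, Benjamini-Hochberg adjustment over all features and a threshold of 0.05. The fit was also run on simulated data in which all arrays shared the spread of a feature. The real array 1HG spread more widely, so that run does not bear on the genes left uncalled here. Named genes are the members, up to 4 genes of smallest 4 h p per list, and the 5 genes most like the member of smallest p; other genes are named after their values were seen. The members and lists were chosen with earlier results of these data known. The number of arrays limits the precision. The main fit did not pair the arrays of the 2 times by replicate number. Deviations of same-numbered arrays correlated at -0.07, 0.16, -0.03 and -0.02, and those of other numbers between -0.17 and 0.20. These values cannot tell whether same-numbered arrays share an animal.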

Additional observations from a re-analysis of the deposited data

Results flagged for a closer look

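Of 18 sets of values examined for a single array far from the others (9 genes at 4 h and at 20 min), 1 stood out, about what chance gives at 1 in 20. In Dpp4 the 4 h array of pair 2 had a log2 ratio of -0.84, where the other 4 pairs lay between -0.20 and -0.04. The gap was 0.805 of the whole range.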

How the results depend on the processing

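Over 594 values of the 27 member differences under alternatives, 556 kept their sign and their side of the threshold, 36 changed sign and 2 passed. The 2 were Ggt1 against 0. Some alternatives could not move a difference, so its sign was fixed in advance. They were each probe taken alone (1 per member), changes to the spread estimate only, and leaving out an array of the uncompared group. With no same-RNA arrays subtracted 1 member was called at 4 h (of 763 features) and 1 at 20 min (of 384), and the ratio against 0 turned the sign of Treh (-0.13), Anpep (-0.022), Mep1a (-0.29) and Alpi (-0.48) at 4 h and of Dpp4 (-0.057), Mep1a (-0.054), Mep1b (0.091) and Alpi (-0.11) at 20 min. Other settings that kept all 12 arrays turned the sign of differences below 0.1 in size. At 4 h they were Mme with arrays scaled to 1 spread (-0.063), Treh (-0.00079) and Mme (-0.0056) with array weights, Treh (-0.046) and Mme (-0.058) with array 6 averaged in as deposited, and Mep1a (-0.0092) with it mirrored, which also moved Anpep to 0.012 for 4 h minus 20 min.

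With 1 array left out 0 members were called; the same step for list genes was chosen after seeing the data. The 4 h differences then ran from -0.19 to 0.18 for Treh, -0.013 to 0.087 for Anpep, -0.12 to 0.12 for Mme, -0.058 to 0.079 for Mep1a and -0.17 to 0.77 for Alpi. The lowest value of Alpi, without the same-RNA array 3HG, turned a difference of 0.42. The 20 min differences ran from -0.23 to 0.034 for Si, -0.042 to 0.089 for Dpp4 and -0.13 to 0.031 for Mep1b, and Anpep between the times from -0.076 to 0.024. Calls over the whole table ran from 2 to 5 at 4 h, 0 to 4 at 20 min and 4 to 43 between the times. They were 1 at 20 min and 16 between the times with scaled arrays, 0 at 20 min with only the groups compared or array 6 mirrored, and 0 in each comparison with array 6 averaged in as deposited. With a replicate block 0 members and 22 features were called between the times. Causes were not tested. Signal over background is not given, so a dim probe cannot be told from a bright one.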
